A study of Mus musculus with 20 samples.

Results

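RNA-seq levels of 9 genes that encode organisers of the synaptic cleft, Nrxn2, Nrxn3, Nlgn1, Nlgn2, Nlgn3, Mdga1, Mdga2, Lrrtm1 and Lrrtm2, were compared between brain regions and between genotypes. These 9 were taken by name from the 35580 genes in the data, and the values of all annotated transcripts of a gene were added together. Mdga1 was chosen by its fitted genotype effect, which differed between the tissues in these same samples, so its genotype values are described here without a test. The other 8 were included for the family they belong to.

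The data came from 20 samples of mouse brain, 5 in each of 4 groups: WT hippocampus, miR-324-null hippocampus, WT neocortex and miR-324-null neocortex. The labels give every mouse as strain C57BL/6J and 13.5 months old. The mice were male. The miR-324-null mice lack the Mir324 locus through a CRISPR/Cas9 deletion, which was made in mixed C57BL/6 and CBA/ca founders, backcrossed onto C57BL/6J and bred into separate WT and null lines. Any background difference between those lines cannot be told apart from the deletion. The labels number the samples within a group but do not say which mice they came from, so p-values measure the spread between these samples.

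Neurexins sit in the presynaptic membrane and bind partners on the other side of the cleft, among them neuroligins and the leucine-rich repeat proteins LRRTM1 and LRRTM2. Neuroligin 1 is found mainly at excitatory synapses, neuroligin 2 mainly at inhibitory ones, and neuroligin 3 at both. MDGA1 and MDGA2 are anchored in the membrane of the same cell as the neuroligins, bind them there and keep neurexins from reaching them.

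The estimated counts assigned to a sample totalled between 12752439 and 19617765, and those of the 9 genes ranged from 161 to 4792 in a sample. All 9 passed the filter on low counts in each comparison. Markers of dentate gyrus, CA1 and CA3 (4, 3 and 3 genes) all passed the test as higher in the hippocampus, and 5 of 6 neocortex markers were lower there, the exception being Fezf2. No values of Mir324 were analysed here, and the genotype labels therefore had no check from the deleted gene. In 3 libraries, choroid plexus RNA stood apart: Ttr, the transthyretin gene, was at 4321 CPM in WT hippocampus replicate 3, at 3756 CPM in null hippocampus replicate 5 and at 759 CPM in null neocortex replicate 2. CPM stands for counts relative to the scaled library total. Ttr was at most 110.0 CPM in each of the other libraries. Without these 3 libraries the fitted differences of the 9 genes kept their direction, except for the genotype difference of Mdga2 in the hippocampus, which moved from 0.01 to -0.01 on the log2 scale. Of the calls for these 9, that of Nlgn1 between tissues was lost. In bulk tissue, fewer cells of a type and less RNA per cell cannot be told apart.

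The mature miRNAs removed in the null mice are shown because their seeds (bases 2 to 8, in capitals) are the letters a target would be matched to. The sequences are from RefSeq (GRCm38.p6), from chr11:70012060-70012082 and chr11:70012095-70012114, both on the plus strand.
miR-324-5p: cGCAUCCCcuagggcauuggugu
miR-324-3p: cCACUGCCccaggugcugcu
The letters that pair with these seeds, GGGATGC for miR-324-5p and GGCAGTG for miR-324-3p, were looked for on the sense strand of every annotated 3′UTR of the 9 genes. Neither was present in any of them, the longest of which, in Nlgn1, has 7423 bases. Of 14739 genes tested in the same way, 9.39% held the first and 16.9% the second. A second form of miR-324-3p with another seed is described by the study, and neither its seed nor other kinds of site were looked for.

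Levels were first ordered among the genes by TPM, the deposited unit that takes transcript length into account. In the hippocampus the highest were Nlgn2, at 81.2 ± 5.6 TPM, and Nrxn2, at 78.2 ± 7.2 TPM (SD, n = 10 samples for these and the following values). Their ranges overlapped, as did those of Nrxn2 and of Lrrtm1, the next gene at 61.3 ± 4.8 TPM. Nrxn3, at 41.8 ± 6.1 TPM, was below all the Lrrtm1 values and above all those of the genes after it. Nlgn3, Nlgn1, Mdga1 and Lrrtm2 followed, with means from 24.8 down to 16.1 TPM, and each overlapped the next. Mdga2 was lowest, at 9.21 ± 1.7 TPM, with no sample as high as the lowest Lrrtm2 value.

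In the neocortex the order was different for the MDGA and LRRTM genes. Nrxn2, at 88.0 ± 6.9 TPM, and Nlgn2, at 87.7 ± 4.1 TPM, overlapped at the top, and Nrxn3 came next at 56.0 ± 6.8 TPM with its samples apart from both neighbours. Lrrtm1, the next after Nrxn2 in the hippocampus, stood at 26.3 ± 4.9 TPM and overlapped Nlgn3 at 22.0 ± 1.9 TPM, which overlapped Lrrtm2, which overlapped Nlgn1. Mdga2, at 12.6 ± 1.9 TPM, was clear of Nlgn1 and of Mdga1, and Mdga1 was last at 5.16 ± 1.8 TPM. This order depended on the non-coding transcripts, since 1 of them, Nrxn2-213, held 29.9% of the hippocampal Nrxn2 TPM. When only protein-coding transcripts were added, the Nrxn2 samples lay between 45.9 and 59.3 TPM in the hippocampus and between 53.9 and 66.6 TPM in the neocortex. All were then below the lowest Nlgn2 samples, at 71.7 and 81.3 TPM, so that Nlgn2 alone was highest in both tissues. The group means of Nrxn3 were lower by this sum too, at 30.2 to 41.2 TPM, as were those of Lrrtm1, at 48.3 and 50.9 TPM in the hippocampus and 18.2 and 23.6 TPM in the neocortex, of Mdga2, at 7.03 to 10.4 TPM, and of Mdga1, at 18.7 TPM in WT hippocampus. By this sum Lrrtm1 was below Nlgn3, Lrrtm2 and Nlgn1 in the neocortex, with overlapping samples.

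**Figure D1:**
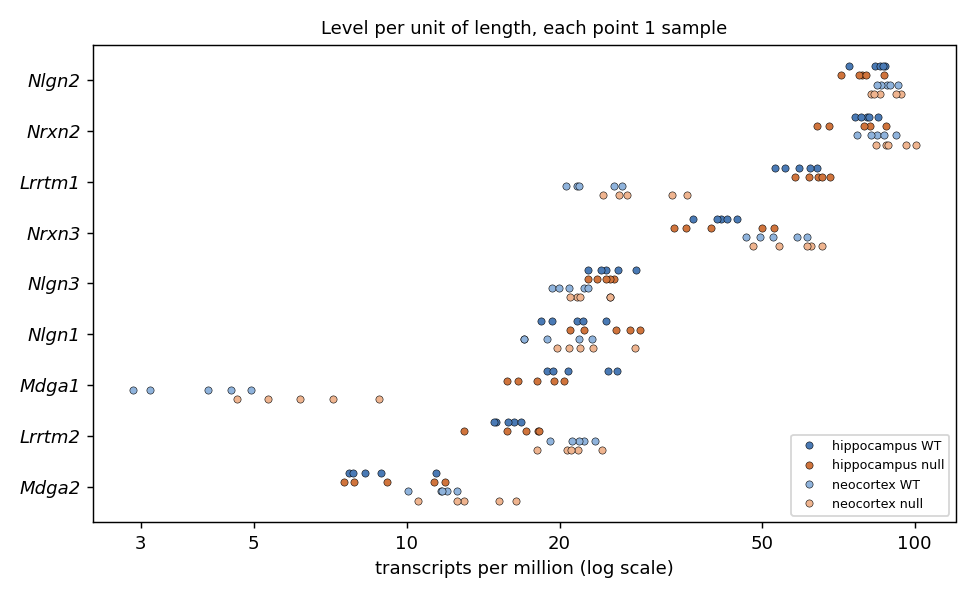
TPM of each of the 9 genes (log axis), 1 point per sample, with colours for the 4 groups; genes are in the order of their mean in the hippocampus. Nlgn2 and Nrxn2 lie furthest right, and Mdga1 is the gene whose hippocampus and neocortex points lie furthest apart.

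The comparison of the tissues asked how far the levels of these genes differ between hippocampus and neocortex, over both genotypes. Of the 9 genes, 8 passed the test (adjusted p at most 0.05, edgeR quasi-likelihood test), 4 as higher in the hippocampus and 4 as lower. Calls were common in this comparison, which passed 46.4% of all 15391 genes, 23.3% as higher and 23.1% as lower. The median log2 difference of the 9 was -0.05, beside 0.00 over all genes. Only Mdga1 and Lrrtm1 differed by more than 2-fold, and 5.89% of all genes did so and passed the test. In 5 of the 9, Nrxn3, Nlgn3, Mdga1, Lrrtm1 and Lrrtm2, the 10 hippocampus and the 10 neocortex samples did not overlap, as in 12.7% of all genes.

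**Figure D2:**
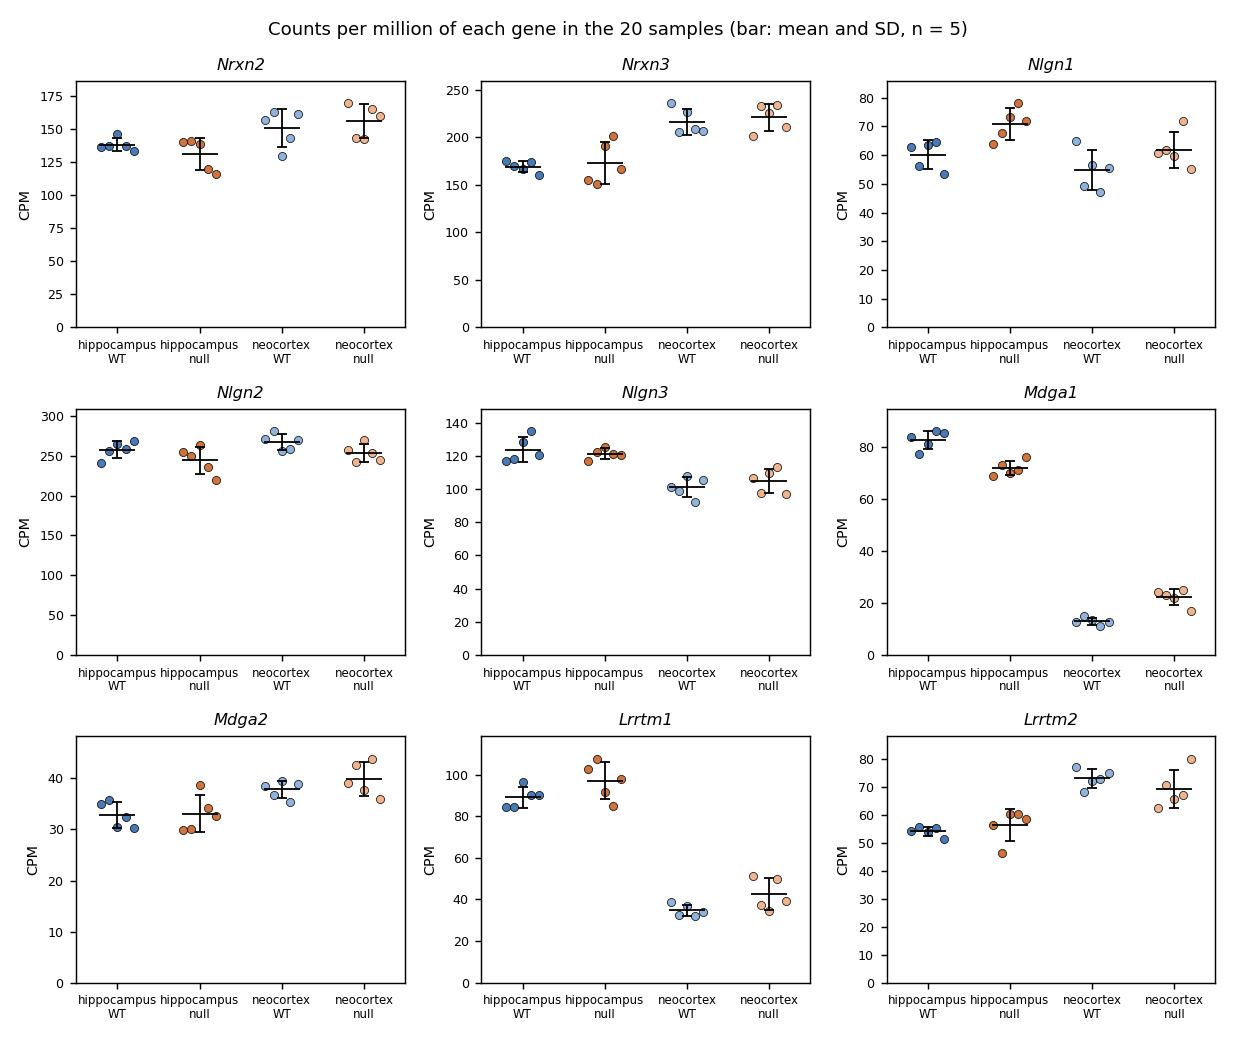
CPM of each gene in the 20 samples, with the mean and SD of each group of 5; every axis starts at 0. Mdga1 and Lrrtm1 are higher in both hippocampal groups, by 4.52-fold and 2.42-fold over both genotypes, and the null neocortex samples of Mdga1, at 16.9 to 25.1 CPM, all lie above the WT ones.

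Among the presynaptic neurexins, Nrxn3 (chromosome 12, 88722876 to 90334935, plus strand, GRCm38) ranged from 151 to 201 CPM in the hippocampus, with a median of 168, and from 201 to 236 CPM in the neocortex, with a median of 219. The highest hippocampal sample was just below the lowest neocortical one. Nrxn3 was 1.28-fold lower in the hippocampus, a log2 difference of -0.35 ± 0.05 (SE) with an adjusted p of 4.90e-06. Nrxn2 (chromosome 19, 6418731 to 6544169, plus strand) ranged from 116 to 147 CPM in the hippocampus, with a median of 138, and from 130 to 170 CPM in the neocortex (129.55 and 169.67 before rounding), with a median of 158. These ranges overlapped, and the level was 1.14-fold lower in the hippocampus (log2 difference -0.19 ± 0.05, adjusted p 0.00394 by edgeR). That call was lost when transcript lengths entered the test, with a difference of -0.12 (adjusted p 0.179 by DESeq2). Among WT samples alone it was -0.13 and did not pass (adjusted p 0.193 by edgeR), and among null samples alone it was -0.25 and passed.

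The neuroligins differed little between the tissues, and not in 1 direction. Nlgn3 (chromosome X, 101299168 to 101325963, plus strand) was 1.19-fold higher in the hippocampus, with samples from 117 to 135 CPM (median 121) against 92.2 to 114 CPM (median 104) in the neocortex. The tissues did not overlap, and the log2 difference was 0.25 ± 0.04 (adjusted p 1.50e-05, edgeR). Nlgn1 (chromosome 3, 25426215 to 26332460, minus strand) ranged from 53.2 to 78.0 CPM in the hippocampus and from 47.1 to 71.7 CPM in the neocortex, with medians of 64.1 and 58.0. Most of those ranges overlapped, and the 1.12-fold higher level in the hippocampus passed the test narrowly (log2 difference 0.17 ± 0.06, adjusted p 0.0267). The Nlgn1 call was kept in each fit without 1 sample, except that without WT neocortex replicate 4. The call did not hold in that fit or in the smaller sets below, where the log2 difference stayed above 0. It was 0.16 without the 3 choroid plexus libraries (adjusted p 0.0701) and 0.14 without WT neocortex replicate 4 (adjusted p 0.0564), both by edgeR. It was 0.14 in WT samples alone (adjusted p 0.243) and 0.20 in null samples alone (adjusted p 0.0769). Nlgn2 (chromosome 11, 69823122 to 69837784, minus strand) did not pass, at 220 to 268 CPM (219.68 and 268.43) in the hippocampus and 242 to 281 CPM in the neocortex, a log2 difference of -0.05 ± 0.04 with an adjusted p of 0.237.

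The neuroligin-binding MDGA genes went in opposite directions. Mdga1 (chromosome 17, 29827949 to 29970087, minus strand) ranged from 69.1 to 86.3 CPM in the hippocampus, with a median of 76.7, and from 11.4 to 25.1 CPM in the neocortex, with a median of 16.0. Over both genotypes it was 4.52-fold higher in the hippocampus, a log2 difference of 2.18 ± 0.06 (adjusted p 3.83e-16, edgeR), and 1.16% of all genes differed by as much or more. Mdga2 (chromosome 12, 66466060 to 67222549, minus strand) ranged from 29.9 to 38.7 CPM in the hippocampus (median 32.5) and from 35.4 to 43.9 CPM in the neocortex (median 38.7). Its ranges overlapped, and it was 1.18-fold lower in the hippocampus (log2 difference -0.24 ± 0.05, adjusted p 0.000677 by edgeR). With transcript lengths in the test the difference was -0.40 ± 0.09 (adjusted p 0.000136 by DESeq2).

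The LRRTM genes, which encode postsynaptic neurexin ligands of excitatory synapses, also split. Lrrtm1 (chromosome 6, 77242689 to 77257791, plus strand) ranged from 84.3 to 108 CPM in the hippocampus (median 91.1) and from 32.3 to 51.5 CPM in the neocortex (median 37.0). It was 2.42-fold higher in the hippocampus, a log2 difference of 1.27 ± 0.07 with an adjusted p of 2.89e-12, and 3.91% of all genes differed by as much. Lrrtm2 (chromosome 18, 35209003 to 35215024, minus strand) was 1.29-fold lower there, at 46.4 to 60.4 CPM (median 55.6) against 62.6 to 80.1 CPM (median 71.5), without overlap (log2 difference -0.37 ± 0.05, adjusted p 2.27e-06). Both genes lie inside a catenin gene on the opposite strand. Lrrtm1 shares no exonic base with Ctnna2, while Lrrtm2 shares 95 of its 6022 exonic bases with Ctnna1. The library kit keeps the strand, but whether the counting used it is not given in the sources used here.

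**Figure D3:**
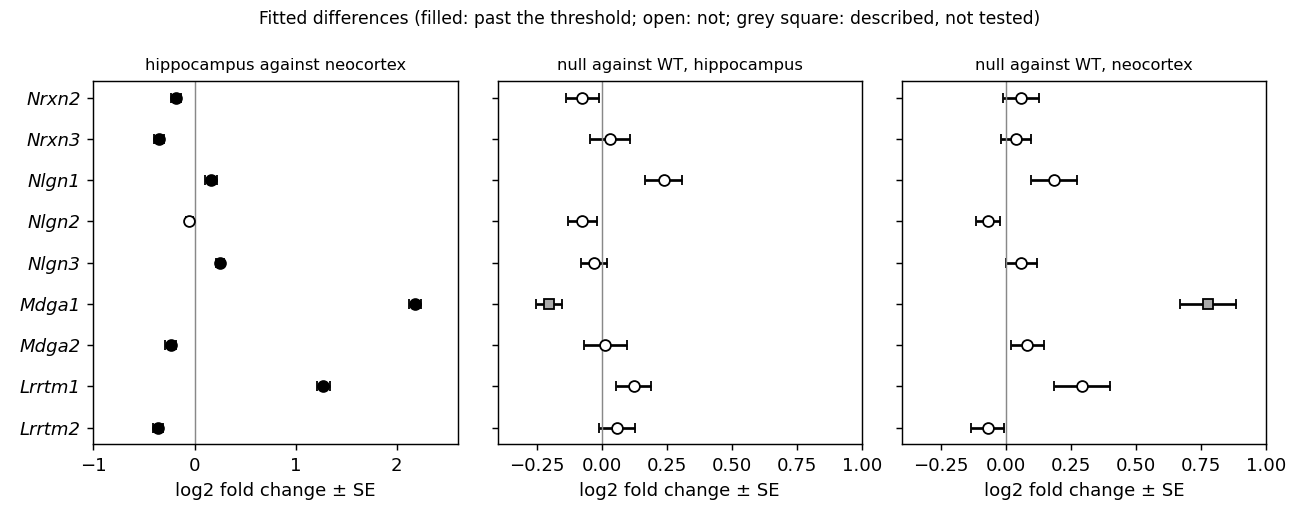
Fitted log2 fold changes with SE for hippocampus against neocortex (n = 10 and 10), and for null against WT in each tissue (n = 5 and 5). Filled circles passed the test, open circles did not and grey squares were not tested; only the left panel holds filled circles, and its axis is wider.

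The genotype comparison asked whether the loss of miR-324 came with a change in these genes. None of the 8 genes that could be tested passed in either tissue by edgeR, where 0.128% of all genes passed in the hippocampus and 0.315% in the neocortex. At an unadjusted p under 0.05 there was 1 of the 8 in each tissue, beside 11.1% and 12.2% of all genes. DESeq2 also called none of the 8, where it called 1.33% of all hippocampal and 1.39% of all neocortical genes tested. In simulated data of this design, edgeR recovered 48% of genes changed by 0.5 on the log2 scale in the hippocampus and 54% in the neocortex. Smaller changes were not simulated. The largest fitted differences of the 8 were 0.24 in the hippocampus and 0.29 in the neocortex, so the recovery at those sizes is not known. None of the 8 passed the test of a genotype effect that differed between tissues (0.0195% of all genes called, with no member at an unadjusted p under 0.05 and none called by DESeq2, which called 0.0361% of all genes).

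Nlgn1 had the lowest unadjusted p of these genes in the hippocampus. Its WT hippocampus samples were at 62.9, 56.2, 63.6, 64.5 and 53.2 CPM, and the null ones at 63.7, 67.6, 73.1, 78.0 and 71.8 CPM. Only the lowest null sample fell within the WT range, and the log2 difference was 0.24 ± 0.07 (p 0.00544, adjusted p 0.286, edgeR). In the neocortex the WT samples were at 64.9, 49.3, 56.5, 47.1 and 55.6 CPM and the null ones at 60.8, 61.8, 59.5, 71.7 and 55.0 CPM. Here the groups overlapped for most of their range, with a log2 difference of 0.18 ± 0.09 (adjusted p 0.435).

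Lrrtm1 had the lowest unadjusted p in the neocortex, with WT samples at 38.6, 32.6, 36.6, 32.3 and 34.0 CPM and null samples at 51.5, 37.3, 34.6, 49.7 and 39.5 CPM. The null replicates 1 and 4 were well above the rest, and the other null samples lay within or just above the WT range. The log2 difference was 0.29 ± 0.11 (p 0.0169, adjusted p 0.293, edgeR). In the hippocampus, WT samples ran from 84.3 to 96.3 CPM and null samples from 85.1 to 108 CPM, a log2 difference of 0.12 ± 0.07 (adjusted p 0.52).

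Nlgn2 lies nearest to the deleted locus, 174259 bases from Mir324 on the same chromosome. Its WT samples were at 241, 255, 264, 258 and 268 CPM in the hippocampus and at 271, 281, 255, 259 and 269 CPM in the neocortex. The null samples were at 254, 249, 263, 236 and 220 CPM (219.68) and at 257, 242, 270 (269.71), 253 and 245 CPM. The groups overlapped in both tissues, with log2 differences of -0.07 ± 0.06 (adjusted p 0.664) and -0.07 ± 0.04 (adjusted p 0.582). For Nrxn2, Nrxn3, Nlgn3, Mdga2 and Lrrtm2 the fitted differences lay between -0.07 and 0.06 in the hippocampus and between -0.07 and 0.08 in the neocortex, with adjusted p values from 0.654 to 0.974 by edgeR.

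Mdga1 was the gene chosen for its genotype values, which follow as a description. In the hippocampus the WT samples were at 83.8, 77.4, 81.2, 86.3 and 85.5 CPM, and the null samples at 69.1, 73.3, 70.1, 71.4 and 76.1 CPM. Every null sample was below every WT sample there, and the log2 difference was -0.20 ± 0.05. In the neocortex the WT samples were at 12.8, 15.1, 13.5, 11.4 and 12.6 CPM and the null samples at 24.2, 23.1, 22.1, 25.1 and 16.9 CPM. Every null sample was above every WT sample in that tissue, with a log2 difference of 0.78 ± 0.11, or 1.71-fold. Over all genes the groups did not overlap for 2.56% in the hippocampus and 2.30% in the neocortex. The difference between the 2 genotype effects was -0.97 ± 0.12 on the log2 scale. The tissue difference of Mdga1 was 2.66 among WT samples alone and 1.69 among null samples alone.

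Summed levels of markers of brain regions and cell types in the same neocortex samples follow, and none of these markers passed the genotype test. The summed level of the 3 CA1 markers was 87.0, 92.8, 81.3, 57.9 and 90.4 CPM in the WT replicates 1 to 5 and 170.4, 117.2, 138.8, 149.6 and 69.2 CPM in the null ones. Null replicate 5, the null sample with the least Mdga1, also had the least of these markers. Most of the sum was Wfs1, at 75.2 CPM of 81.9 CPM in the WT mean. Fibcd1, a CA1 marker, was at 5.2 to 7.7 CPM in WT and at 15.6, 13.3, 10.3, 23.3 and 7.9 CPM in the null replicates, all above the WT samples. In the hippocampus itself it was at 125 to 225 CPM.

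The 4 dentate gyrus markers summed to between 18.3 and 24.2 CPM in WT neocortex and between 21.2 and 47.4 CPM in null neocortex. The 6 neocortex markers summed to between 425 and 515 CPM in WT, to between 344 and 382 CPM in null replicates 1 to 4 and to 493 CPM in null replicate 5. The 7 striatum markers summed to between 121 and 336 CPM in WT and between 208 and 517 CPM in null. The 3 CA3 markers summed to between 74.1 and 88.3 CPM in WT and between 88.5 and 107 CPM in null, and they did not go in 1 direction. The WT and null means were 46.9 and 62.8 CPM for Cpne4, 34.0 and 30.2 CPM for Bok, and 0.12 and 0.22 CPM for Iyd. The 3 inhibitory neuron markers summed to between 479 and 527 CPM and between 509.6 and 688 CPM, and the 4 neuron markers to between 6535 and 7164 CPM and between 5693 and 6773 CPM. The 5 choroid plexus markers summed to between 15.5 and 53.1 CPM in WT and between 22.2 and 801 CPM in null. No marker had a mean of 0 CPM in these groups, although the CA3 marker Iyd was at 0 in single samples of both, and no gene of the 14 marker lists passed the genotype test in the neocortex by edgeR, although many had an unadjusted p under 0.05, beside 12.2% of all genes. These were 7 of 7 striatum, 2 of 2 CA1, 2 of 3 dentate gyrus, 1 of 2 CA3, 3 of 3 choroid plexus and 3 of 3 inhibitory neuron markers tested, all with higher fitted values in null samples, and 4 of 6 neocortex and 3 of 4 neuron markers, all with lower ones. The other 6 lists (astrocyte, oligodendrocyte, precursor, microglia, endothelium and blood) had none. The part of these markers in the Mdga1 and Lrrtm1 values was not tested. Without null replicate 5 the Mdga1 difference in the neocortex was 0.86, and with transcript lengths in the test it was 0.68.

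**Figure D4:**
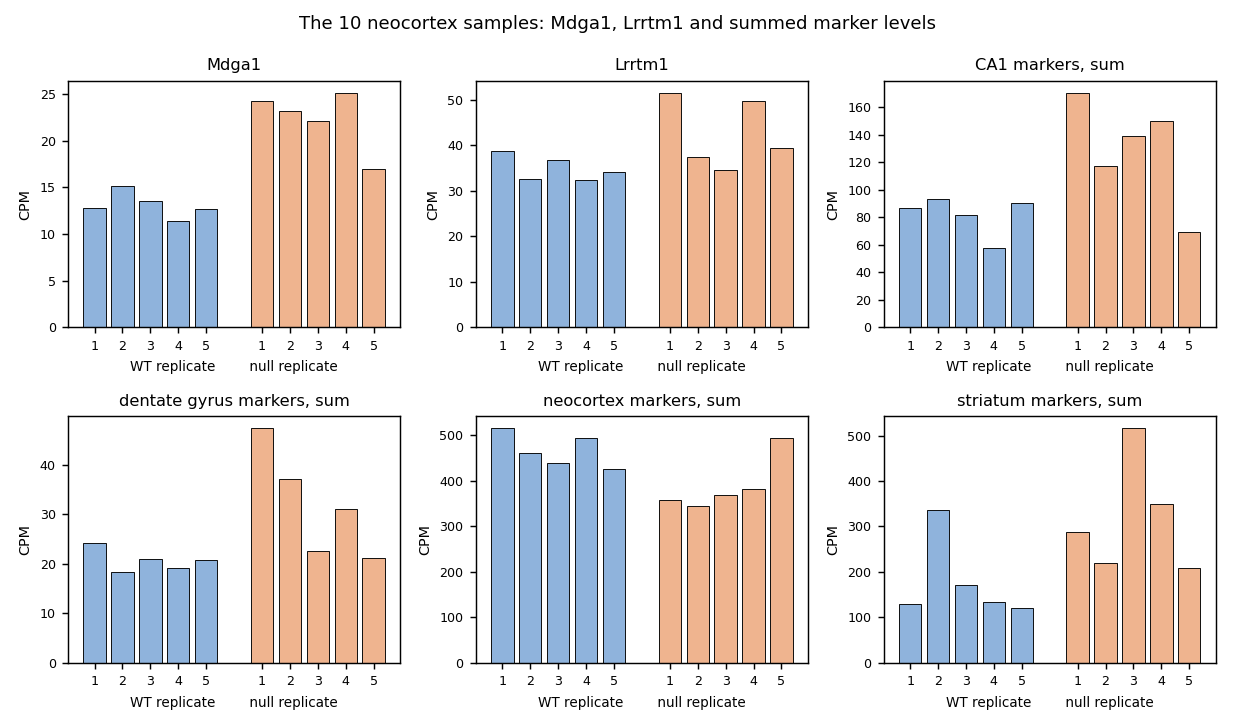
CPM of Mdga1 and Lrrtm1 and summed CPM of 4 marker lists in the 10 neocortex samples, 1 bar per sample, WT on the left and null on the right of each panel. Null replicate 5 has the lowest Mdga1 and the lowest CA1 marker sum of the null samples, 16.9 and 69.2 CPM, and the highest neocortex marker sum, 493 CPM.

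In the hippocampus no gene of the 14 marker lists passed the genotype test by edgeR. The CA1 markers summed to between 284 and 317 CPM in WT and between 258 and 357 CPM in null, and the dentate gyrus markers to between 169 and 283 CPM and between 120.2 and 297 CPM. The 3 endothelium markers summed to between 151 and 192 CPM in WT and to between 122 and 135 CPM in null replicates 1 to 4, with null replicate 5 at 180.1 CPM. The inhibitory neuron markers summed to between 392 and 471 CPM in WT and between 432 and 489 CPM in null. An unadjusted p under 0.05, found for 11.1% of all genes, was found for 2 of 3 endothelium markers, both lower in null, for 2 of 3 inhibitory neuron markers, both higher, for 2 of 4 neuron markers, 1 in each direction, and for 1 striatum and 1 astrocyte marker, both lower. Their part in the hippocampal values of Mdga1 and of the other genes was not tested.

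Alternative exons affect which partners these proteins bind, and the shares below are kallisto's division of reads among annotated transcripts, given as a description. Neurexins carry an alternative 90-base coding exon, splice site 4, whose inclusion alters binding to neuroligins and LRRTM proteins. It lies at chr19:6513716-6513805 in Nrxn2 and at chr12:90199147-90199236 in Nrxn3, both on the plus strand (GRCm38, GENCODE M21). The first 30 bases of each are shown so that the paralogues can be compared, with capitals where they differ. The exons are identical at 59 of 90 positions, or 65.6%.
Nrxn2: gAaacTTtgataaCgaGcgcctGGCGatTg
Nrxn3: gCaacACtgataaTgaAcgcctCCAAatGg
Transcripts with the exon held 89.7% ± 1.8 of the Nrxn2 TPM that spans it in WT hippocampus and 87.4% ± 1.7 in WT neocortex (SD, n = 5). The null groups were at 89.9% ± 2.5 and 86.5% ± 1.4. For Nrxn3 the shares were 81.6% ± 2.6 and 81.2% ± 1.1 in WT and 81.1% ± 5.7 and 79.8% ± 2.5 in null. Ranges of the tissues and genotypes overlapped for both genes.

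The 2 neurexin genes differed in where their transcripts began. Long forms start at the 5′ end of the gene and shorter beta forms at an internal promoter. Transcripts from the internal start (position 6497828 on chromosome 19) held 77.1% ± 1.6 of the protein-coding Nrxn2 TPM in WT hippocampus and 74.8% ± 2.6 in WT neocortex, and 77.5% ± 5.7 and 70.9% ± 3.7 in null. Those of Nrxn3 (position 89812483 on chromosome 12) held 8.79% ± 3.1 and 8.98% ± 1.3 in WT and 8.82% ± 2.5 and 13.8% ± 4.3 in null. The long and the internal forms share 3′ exons, and the error of dividing those reads was not tested.

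Nlgn1 has 2 coding inserts that affect its choice of neurexin, one of 60 bases at chr3:25920178-25920237 and one of 27 bases at chr3:25439865-25439891, on the minus strand. The shorter is printed because it alters the affinity for beta-neurexins.
Nlgn1, 27-base insert: gtaaccgttggagcaattcaaccaaag
In the annotation the same 2 of 4 spanning transcripts hold both inserts, so the share is 1 value for the pair. It was 55.2% ± 14 in WT hippocampus, 43.2% ± 10 in null hippocampus, 37.5% ± 13 in WT neocortex and 46.2% ± 14 in null neocortex. Single samples ran from 22.5% to 68.7%, and all 4 groups overlapped. Nlgn3 transcripts with its own 60-base insert (chrX:101303072-101303131) held between 0.00% and 29.7% of the spanning TPM in a sample.

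Mdga1 has a 24-base exon at chr17:29839549-29839572 (minus strand), which its transcript Mdga1-208 holds and Mdga1-201 lacks. It is shown because both of these transcripts passed the tissue test of single transcripts given below.
Mdga1, 24-base exon: ctatcaacttgcccagcctgtcag
Transcripts with it, which include 1 annotated for nonsense-mediated decay and 1 with a retained intron, held 40.2% ± 6.0 of the spanning TPM in WT hippocampus and 35.5% ± 6.6 in null hippocampus. The shares were 57.2% ± 11 in WT neocortex and 43.7% ± 16 in null neocortex, with single samples from 25.9% to 70.4% there. By genotype, Mdga1-201 differed by 1.05 ± 0.23 on the log2 scale in the neocortex and Mdga1-208 by 0.40 ± 0.24, given without a test as for the gene.

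**Figure D5:**
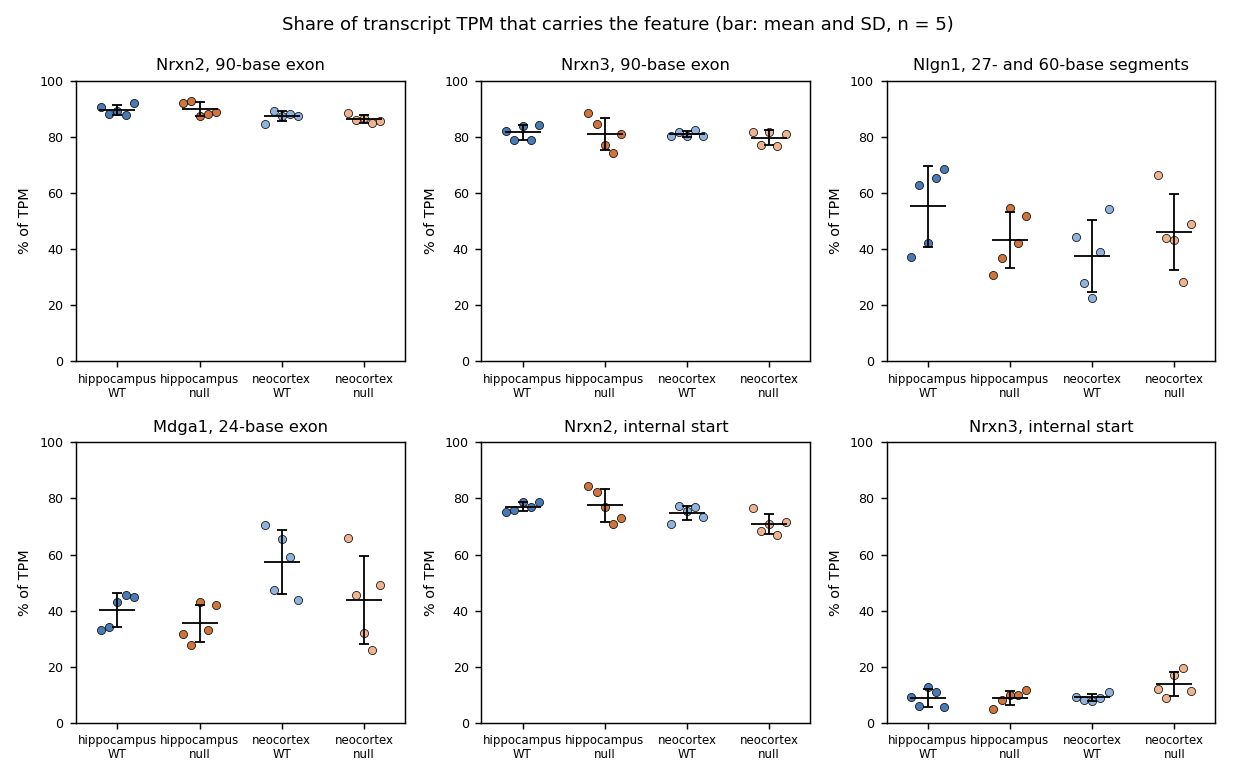
Share of TPM in transcripts that carry each exon or start, in percent, for the 20 samples, with mean and SD of each group of 5. The 90-base exons lie above 74% in every sample, while the Nlgn1 and Mdga1 exons spread widely within a group, for Nlgn1 from 37.3% to 68.7% in WT hippocampus.

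Of the 23 transcripts that held at least 10% of their gene's TPM in some group, 6 passed the tissue test, 16 did not and 1, Mdga1-206, was removed by the filter on low counts. Of all 41103 transcripts tested, 16.3% passed. Mdga1-201 was higher in the hippocampus by 2.46 ± 0.12 on the log2 scale (adjusted p 1.62e-10, edgeR), and Mdga1-208 by 1.77 ± 0.16 (adjusted p 2.37e-07). Lrrtm1-202 was higher by 1.68 ± 0.30 (adjusted p 0.000483) and Lrrtm1-201, annotated for nonsense-mediated decay, by 1.17 ± 0.12 (adjusted p 5.31e-07). Nrxn3-205 and Lrrtm2-201 were lower, by log2 differences of -0.27 ± 0.03 (adjusted p 1.49e-05) and -0.35 ± 0.05 (adjusted p 8.93e-05). Without null hippocampus replicate 3 the count was 10. None of the 19 of these transcripts outside Mdga1 passed the genotype test by edgeR, which called 0.0291% of all transcripts in the hippocampus and 0.0249% in the neocortex. In each tissue 1 of them had an unadjusted p under 0.05, for which the share over all transcripts is not given here. These tests take the estimated counts as exact, and do not hold the error of dividing reads among transcripts.

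The other genes of this cleft machinery were taken as a list of 54: further LRRTM genes, secreted linkers such as cerebellins and C1q-like proteins, neurexophilins, calsyntenins, latrophilins and their FLRT and teneurin partners, receptor phosphatases with SLITRK ligands, netrin-G proteins and scaffolds. Between the tissues 42 of the 54 passed, 19 as higher in the hippocampus and 23 as lower, and 12 did not, with a median log2 difference of -0.08. Over all genes 46.4% passed, 23.3% as higher and 23.1% as lower. C1ql2, a secreted C1q-like protein of mossy fibre synapses and one of the dentate gyrus markers above, was 17.3-fold higher in the hippocampus (log2 4.12 ± 0.29, adjusted p 2.32e-10 by edgeR). That value was 4.78 in WT samples alone and 3.45 in null samples alone. Shisa6, an AMPA receptor auxiliary protein, was 9.60-fold higher (log2 3.26 ± 0.12, adjusted p 1.40e-14), and Ntng1, netrin-G1, 2.25-fold higher (log2 1.17 ± 0.11, adjusted p 2.16e-08).

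The largest differences in the other direction were those of Cbln2, Lrrtm3 and Flrt1. Cbln2, a cerebellin that bridges neurexins to delta glutamate receptors, was 4.49-fold lower in the hippocampus (log2 -2.17 ± 0.18, adjusted p 2.96e-09, edgeR). Lrrtm3 was 2.49-fold lower (log2 -1.32 ± 0.08, adjusted p 1.43e-11) and Flrt1, a latrophilin ligand, 2.13-fold lower (log2 -1.09 ± 0.10, adjusted p 6.05e-09). Lrrtm1 and Lrrtm4 (1.23-fold higher, adjusted p 0.0133 by edgeR) were higher in the hippocampus, and Lrrtm2 and Lrrtm3 lower.

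By genotype, edgeR called 1 of the 54 in the hippocampus, beside 0.128% of all genes, and none in the neocortex, beside 0.315%. An unadjusted p under 0.05 was found for 8 of the 54 in the hippocampus and 17 in the neocortex, beside 11.1% and 12.2% of all genes. DESeq2 called 3 in the neocortex, where it called 1.39% of all genes, with Nxph3, a neurexophilin, at a log2 difference of -0.32 (adjusted p 0.0309), Slitrk4 at 0.27 (adjusted p 0.0194) and Shisa6 at 0.78 (adjusted p 0.0143). With transcript lengths in DESeq2, which then called 1.28% of all genes, the 3 called were Nxph3, Shisa6 and Tenm4, a teneurin, at 0.27 (adjusted p 0.0425). In the simulated data, 10.8% of the DESeq2 calls in the neocortex were of unchanged genes, beside 4.05% of those by edgeR. In the hippocampus these shares were 18.4% and 5%. DESeq2 was run there without transcript lengths. The part of the CA1, dentate gyrus and striatum markers described above in these neocortex values was not tested. Slitrk4, a postsynaptic leucine-rich repeat protein that binds receptor phosphatases, was at 33.0, 30.4, 30.5, 30.1 and 27.8 CPM in WT hippocampus and at 37.5, 38.0, 43.9, 44.7 and 38.4 CPM in null hippocampus. The groups did not overlap, as for 2.56% of all genes, and it was the only 1 of the 54 for which this held. It was 1.33-fold higher in null samples (log2 0.42 ± 0.07). Its adjusted p of 0.0499 lay at the threshold and ranged from 0.000191 to 0.322 over the other settings, 6 of 8 of which did not call it, nor did 9 of 10 fits without 1 library. In the neocortex its difference was 0.27 ± 0.06 with an adjusted p of 0.102.

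The genes whose log2 CPM followed each of the 9 most closely over the 20 samples were listed as a description. Because the tissues differ, the points fall into 2 clusters, and libraries are shared by all genes. Mdga1 was closest to Ust (Pearson r 0.988), Rgs14 (0.986) and Fibcd1 (0.984), and Lrrtm1 to Slc9a4 (0.991), Adamts9 (0.990) and Cpne6 (0.988). Nrxn3 was closest to Pde4d (0.974), Dennd4a (0.966) and Myo5a (0.966), and Lrrtm2 to Katnal1 (0.953), Osbpl3 (0.950) and Tnfrsf11b (0.949). Mdga2 was closest to Dennd4a (0.915), Klf7 (0.906) and Fmn2 (0.905), and Nlgn3 to Palld (0.930), Pcdh19 (0.924) and Nkain3 (0.923). The lowest values were those of Nlgn1 with Grid1 (0.885), Wdr7 (0.882) and Hnrnpk (0.876), of Nlgn2 with Xylt2 (0.878) and Espn (0.775), and of Nrxn2 with Ap2a1 (0.811), Ppp1r16a (0.805) and Nyap1 (0.805).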

How the data were processed

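Total RNA from hippocampus and neocortex was made into libraries with the TruSeq Stranded mRNA kit and sequenced on a NextSeq 500. The authors quantified transcripts of GRCm38 (Ensembl release 92) with kallisto and deposited 1 table per sample with estimated counts and TPM. The version of kallisto is not given in the sources used here. Here, 113580 of 115270 transcripts were matched by identifier to GENCODE M21 and summed to 35580 genes; the 1690 others held at most 0.556% of a sample's counts. The members and lists were chosen with earlier results of these data known.

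Deposited estimated counts were rounded and tested with edgeR 4.0.16 (R 4.3.3; TMM scaling, default filter on low counts, quasi-likelihood F test, Benjamini-Hochberg adjustment over all genes or transcripts, adjusted p at most 0.05). The tissue and interaction tests used all 20 samples, and each genotype test the 10 of its tissue. Standard errors were taken from the F statistic. CPM used TMM-scaled totals, log2 CPM a prior count of 2, and deposited TPM were used only for levels and shares. DESeq2 1.42.0 (with and without transcript lengths) was an alternative. On simulated data, edgeR recovered 89% of genes changed by 1 and 78% of those changed by 0.5 on the log2 scale between tissues. Named genes were the 9, the 3 of the list of 54 with the largest called tissue difference in each direction, any of them called for genotype, the 3 closest genes by Pearson r, leaving out symbols of predicted genes (1 of those for Nlgn2 is not reported here), and transcripts with at least 10% of a gene's TPM. Lrrtm4, Nxph3 and Tenm4 were named after their values were seen.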

Additional observations from a re-analysis of the deposited data

Results flagged for a closer look

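The genotype effect on Mdga1 in the hippocampus minus that in the neocortex was -0.97 on the log2 scale, since all 5 null hippocampus samples lay below the WT samples and all 5 null neocortex samples above them. As the gene was chosen for this value, it is given without a test. In groups of 5 samples, 1 share had a sample apart from the rest, that of the Nlgn3 transcript with the 60-base insert in null hippocampus. There, 1 library held 5.08e-05% of the spanning TPM, where the group median was 11.1% and the highest sample 13.3%. In WT neocortex the lowest sample held still less, 8.73e-08%, beside a median of 13.9%, but was not flagged as apart. Of 68 groups looked at, about 1 in 20 would be expected to show a sample apart by chance.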

How the results depend on the processing

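Between tissues, 6 to 8 of the 9 genes were called under each alternative (7 with transcript lengths in DESeq2, 6 in WT samples alone, 7 in null samples alone, 7 without the 3 choroid plexus libraries, an alternative chosen after seeing the data), and 7 or 8 when any 1 sample was left out. No genotype or interaction call was made for the 8 genes under any alternative, leave-one-out fits included. The tissue difference of C1ql2 ran from 3.45 (null samples alone) to 4.78 (WT samples alone) and that of Shisa6 from 2.90 to 3.63 in the same fits. For the list of 54, DESeq2 called 3 genes by genotype in the neocortex where edgeR called none. For the transcripts, leaving out 1 sample gave 6 to 10 calls between tissues. Whether a replicate number marks the same mouse in both tissues is not known. Correlations of same-numbered deviations between the tissues ran from -0.10 to 0.10 in WT, where 2 of 5 samples correlated best with their own number. They ran from 0.016 to 0.18 in null, where 3 of 5 did. Between WT and null samples of the same tissue, which cannot share a mouse, 1 of 5 did in either tissue. With 5 samples per group these counts cannot decide whether mice were shared. The main tests treated the samples as unpaired. With a replicate block, 8 genes and 6 transcripts were called between tissues and none of the 8 genes by genotype, and Slitrk4 lost its hippocampal call (adjusted p 0.322 by edgeR).

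Several differences, most of them near 0, changed sign on the log2 scale. The hippocampal genotype difference of Mdga2 was -0.0080 without the choroid plexus libraries. With 1 sample left out it ran from -0.049 to 0.048, that of Nrxn3 from -0.028 to 0.078 and that of Nlgn3 from -0.050 to 0.0027. The interaction of Nrxn3 was -0.0047 without a filter, -0.037 with transcript lengths and -0.0062 with the replicate block, and ran from -0.064 to 0.047 with 1 sample left out. That of Nlgn2 was -0.0048 without a filter and -0.0095 with transcript lengths, with a range of -0.028 to 0.036, and that of Nlgn1 ran from -0.0098 to 0.118. Between tissues, the Mdga2 transcript of 1388 bases was at 0.072 with the replicate block and 0.15 without the choroid plexus libraries. With 1 sample left out it ran from -0.249 to 0.054. Nlgn1-202 was at -0.00053 and -0.011 in the same fits (-0.047 to 0.192 with 1 left out). Nrxn2-213 was at -0.00066 with the block (-0.069 to 0.078 with 1 left out). The Mdga1-203 difference was not near 0, at 0.82 to 1.53 under the alternatives. It ran from -1.62, without null hippocampus replicate 4, to 1.74 with 1 sample left out. The cause was not tested. Among the genes taken by name at the start, the lowest estimated count in a sample was 161, in WT neocortex for Mdga1. Some other genes described here were at lower levels. C1ql2 was at 0.58 CPM in WT neocortex replicate 2, where Mdga1 was at 15.1 CPM.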
